A study of Mus musculus with 6 samples.

Results

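The genes described here are the 4 VEGF ligand genes Vegfa, Vegfb, Figf and Pgf, the receptor genes Kdr and Flt1, and the co-receptor genes Nrp1 and Nrp2. They were taken by gene symbol, or by an older symbol, from an Illumina bead array of mouse tracheal RNA, and all 8 genes were present with 15 of 25697 probes. Signal above background allowed a test for 6 of the 8 genes, among 10831 genes tested in all. RNA came from whole tracheas of C57BL/6 embryos at E18.5, pooled at random by 3. There were 3 pools labelled mutant, with genotype Sox9-/- and no mesenchymal expression of Sox9, so that cartilage rings did not form. There were 3 pools labelled wild type (Sox9+/+), called control here. The 9 tracheas of each group came from 7 pregnant females in all, and the sources used here do not name the driver of the deletion. No treatment other than the genotype is given.

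Vascular endothelial growth factors are secreted dimers that bind receptor tyrosine kinases on endothelial cells. Vegfa acts mainly through Kdr, the receptor that drives endothelial growth and permeability, whereas Flt1 binds Vegfa, Vegfb and Pgf and, with its soluble form, limits the Vegfa that reaches Kdr. Figf, now named Vegfd, encodes a ligand that in the mouse binds the lymphatic receptor Flt4. Neuropilins have no kinase of their own, and they serve both as co-receptors of VEGF and as receptors of class 3 semaphorins, which guide axons. In the developing airway the epithelium is a known source of Vegfa. Resting cartilage is avascular, and hypertrophic cartilage secretes Vegfa when vessels enter it.

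All 6 pools were hybridised to a single slide, and each group took neighbouring places on it, so an effect of place and an effect of genotype cannot be told apart. Median raw signal was 205 to 211 on the labelled mutant arrays and 183 to 198 on the control arrays, with 14468 to 14726 probes detected per array. Sox9 had a raw signal of 202, 185 and 196 in the labelled mutant pools, against 148, 141 and 151 in the control pools. Its probe was detected, near background, in all 3 labelled mutant pools (detection p 0.016 to 0.043). It was not above background in any control pool (detection p 0.36 to 0.75). It therefore checks nothing about the deletion, and its direction goes against the label. The place of that probe relative to the deleted part is not given in the sources used here. Of 12 tested chondrocyte markers 10 fell in the labelled mutant pools, 7 or 8 without any 1 pool, and 2 where only genes detected on all 6 arrays were tested. That last setting drops markers undetected in some pool, so it tests fewer of them. Hapln1 and Ucma were detected in 0 of 3 labelled mutant pools, and Cytl1, Matn1, Acan and Comp in 1 of 3. All of these were detected in 3 of 3 control pools, and so entered the test through the control pools. Col2a1, which encodes the main cartilage collagen, fell by 6.36 on the log2 scale (SE 0.18, limma adjusted p = 5.66e-05). Its probe was detected in 2 of 3 labelled mutant pools, and the change was -4.25 without background correction. In whole tracheas, fewer cells of a type and less RNA per cell cannot be told apart.

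None of the 6 tested VEGF genes differed between the groups beyond the spread between pools. Counted by limma at an adjusted p below 0.05, 0 of 6 passed, where 5.53% of all genes tested did (2.16% higher and 3.37% lower in labelled mutant pools), and 0 of 6 had an unadjusted p below 0.05, where 25.1% of all genes did. The unadjusted count was 2 without labelled mutant pool 1 and 1 without labelled mutant pool 3, with array weights or with a replicate block. In none of the 6 did the groups separate completely on the normalized scale, where 31.4% of all genes did so. The log2 changes ran between -0.34 (Flt1) and 0.35 (Pgf), with a median of -0.08 (also -0.08 without the probes named Nrp), beside 0.01 over all genes tested. A p that misses the threshold does not show that levels were equal, and the 95% interval of each change is therefore given below.

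Vegfa, the principal ligand, was read by 2 probes well above background. The brighter probe had normalized log2 signals of 11.05, 10.60 and 10.83 in labelled mutant pools 1 to 3, against 10.88, 10.85 and 10.97 in control pools 1 to 3. The highest and the lowest values were both in labelled mutant pools, and the control values lay between them. The means were 10.83 ± 0.22 and 10.90 ± 0.06 in labelled mutant and control pools (SD, n = 3 each), a log2 change of -0.08 (SE 0.13, 95% interval -0.38 to 0.23, limma adjusted p = 0.759). On the linear scale the interval reached from 0.768-fold to 1.17-fold. The second probe read 9.06, 8.71 and 9.02 in the labelled mutant pools and 9.29, 8.90 and 8.96 in the control pools, a change of -0.12 (SE 0.15, limma adjusted p = 0.681 over all probes). In that fit over probes 0 of the 9 VEGF probes passed, where 4.41% of all probes did. Both probes thus had changes slightly below 0 and intervals that spanned it. The remaining Vegfa probe was not above background on any array (detection p 0.246 to 0.991). The array file does not say which transcripts the 3 probes read.

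Vegfb, a ligand of Flt1 known from heart and muscle, had log2 signals of 10.70, 10.49 and 10.65 in the labelled mutant pools, against 10.84, 10.53 and 10.73 in the control pools. The groups overlapped, and pool 2 was the lowest of each group. The change was -0.08 (SE 0.12, 95% interval -0.36 to 0.19, limma adjusted p = 0.695), and without 1 pool it lay between -0.17 and -0.01.

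Figf, the gene of VEGF-D, is known for strong expression in fetal lung mesenchyme. Its log2 signals were 9.77, 9.44 and 9.58 in the labelled mutant pools, against 9.67, 9.60 and 9.44 in the control pools. The groups overlapped almost fully, and the change of 0.02 (SE 0.12, 95% interval -0.26 to 0.30, limma adjusted p = 0.917) was the smallest of the 6. Before normalization the picture was different: raw signals were 1115, 893 and 980 in the labelled mutant pools and 850, 815 and 821 in the control pools, with no overlap. Raw signal was higher in all 3 labelled mutant pools than in any control pool for 50.3% of all genes tested, so the raw separation of Figf was shared with about as many genes as not.

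Pgf, placental growth factor, a ligand of Flt1 but not of Kdr, was dim. Its log2 signals were 6.35, 6.16 and 5.65 in the labelled mutant pools, against 6.09, 5.64 and 5.38 in the control pools. The 2 highest labelled mutant values lay above all control values, and labelled mutant pool 3 lay among them. The means were 6.05 ± 0.36 and 5.70 ± 0.36 (SD, n = 3 each), a change of 0.35 (SE 0.24, 95% interval -0.22 to 0.92, limma adjusted p = 0.414). This interval was the widest of the 6 and reached from 0.858-fold to 1.89-fold. Without 1 pool the change lay between 0.18 (without control pool 3) and 0.55 (without labelled mutant pool 3). Raw signals of 239, 221 and 204 in the labelled mutant pools and 193, 178 and 183 in the control pools did not overlap. They stood close to the lowest raw signal of a detected probe, which was 184 to 190 on the labelled mutant arrays and 166 to 180 on the control arrays.

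**Figure D1:**
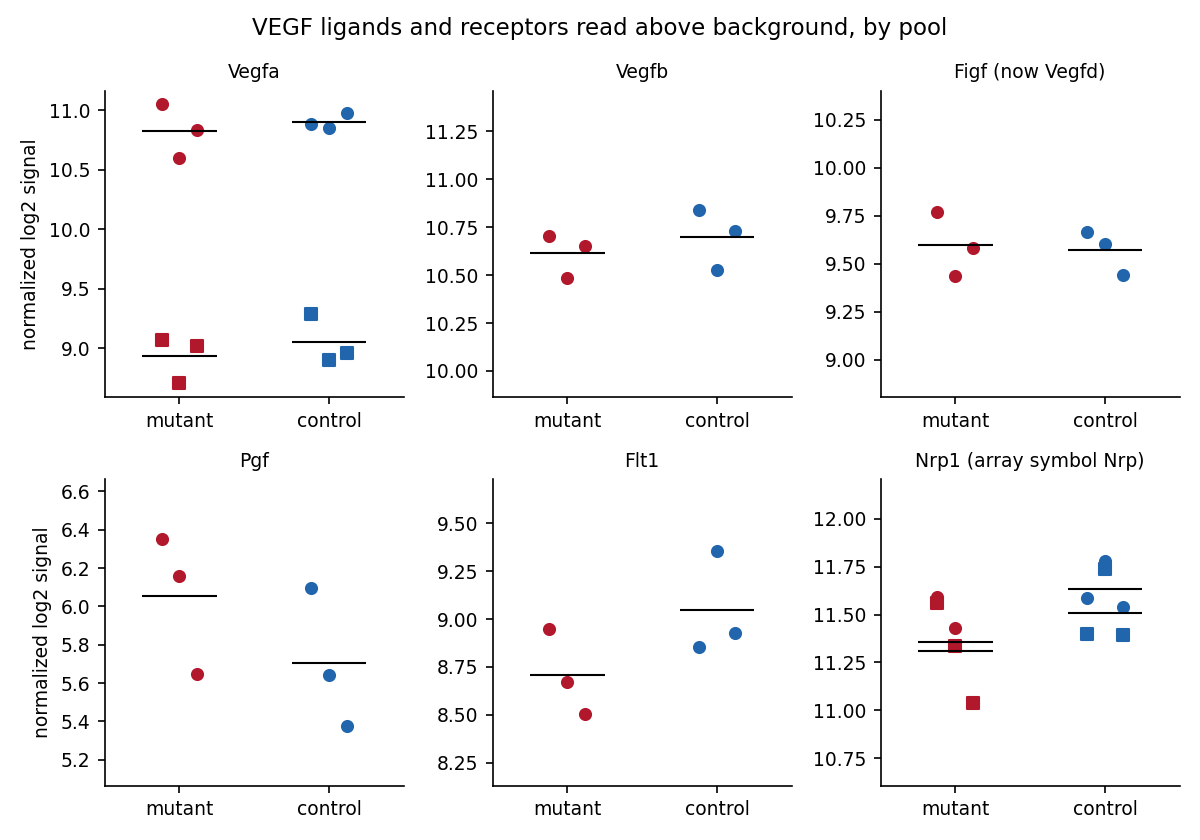
Normalized log2 signal (vertical axes, each with its own range) of the 6 tested VEGF genes in pools labelled mutant (red, left) and control (blue, right). Each point is 1 pool, black lines are group means, and circles and squares are different probes of a gene. The dim probe of Nrp is not drawn. The pools of both groups overlap in each panel.

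Flt1, the decoy-like receptor, was read above background by 1 of its 2 probes. Its log2 signals were 8.95, 8.67 and 8.51 in the labelled mutant pools, against 8.86, 9.36 and 8.93 in the control pools. Labelled mutant pools 2 and 3 lay below all control values, labelled mutant pool 1 lay among them, and control pool 2 was the highest of all. The means were 8.71 ± 0.22 and 9.05 ± 0.27 (SD, n = 3 each), a change of -0.34 (SE 0.17, 95% interval -0.75 to 0.07, limma adjusted p = 0.275). The authors' deposited table gives Flt1 the same change, -0.34, with an adjusted p of 0.300. Without control pool 2 the change was -0.18, and without labelled mutant pool 1 it was -0.46. The second Flt1 probe was at background on all 6 arrays (raw signal 158 to 168 in labelled mutant pools and 150 to 152 in control pools). Whether either probe reads the soluble or the membrane form is not given in the file.

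Kdr, the main signalling receptor of Vegfa, could not be measured. Its only probe had raw signals of 179, 163 and 165 in the labelled mutant pools and 152, 142 and 161 in the control pools, with detection p-values between 0.123 and 0.695. It was therefore not above background on any of the 6 arrays. The raw level was below that of the dimmest detected probe on each array, and no fold change is given. Other endothelial genes were read above background on all 6 of the same arrays. Pecam1, an adhesion molecule of endothelial cells, averaged 9.19 ± 0.22 in labelled mutant pools and 9.55 ± 0.20 in control pools on the log2 scale (SD, n = 3 each). Cdh5, the endothelial cadherin, averaged 7.26 ± 0.37 and 7.53 ± 0.23 (SD, n = 3 each).

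**Figure D2:**
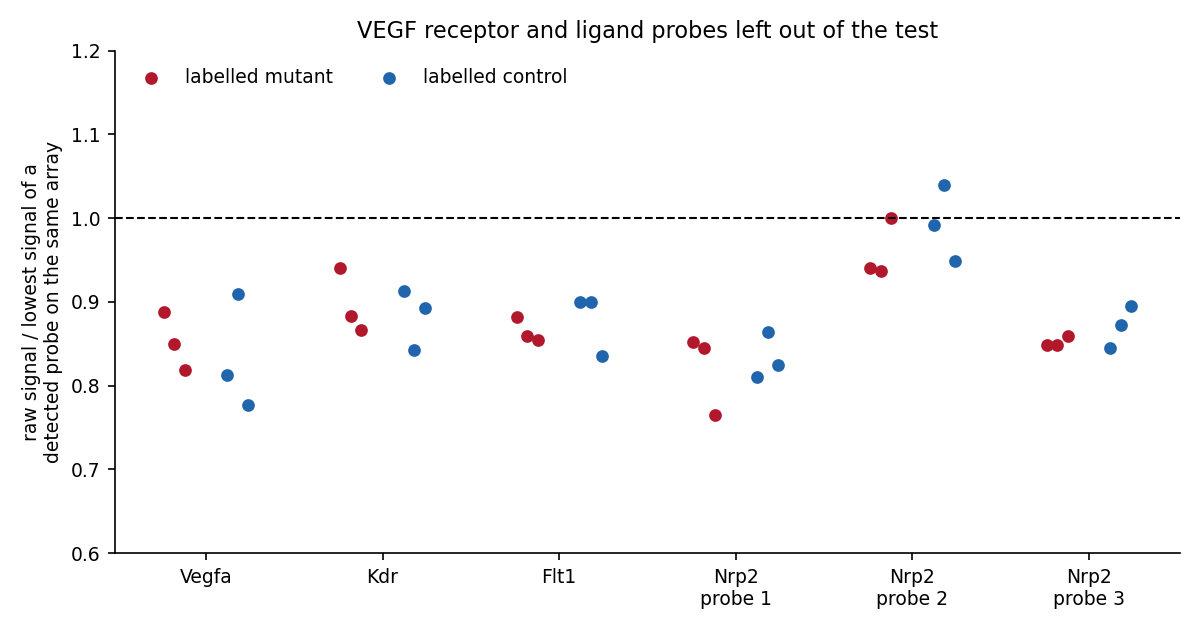
Raw signal of the 6 VEGF probes left out of the test, divided by the lowest signal of any detected probe on the same array (vertical axis), for pools labelled mutant (red) and control (blue). The dashed line marks that lowest detected signal. All points of Vegfa, Kdr and Flt1 probes lie below the line, and only the second Nrp2 probe reaches it, on 1 labelled mutant and 1 control array.

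The co-receptor Nrp1 has no probe under its present symbol. The array names 3 probes Nrp, which RefSeq lists as an older name of Nrp1 and also as the present symbol of an unrelated gene, so the assignment of these probes to Nrp1 is uncertain. Of the 3, 2 were bright. The brightest had log2 signals of 11.59, 11.43 and 11.04 in the labelled mutant pools, against 11.59, 11.78 and 11.54 in the control pools. The next had 11.56, 11.34 and 11.04 in the labelled mutant pools, against 11.40, 11.74 and 11.39 in the control pools. Both probes placed labelled mutant pool 3 lowest and control pool 2 highest. The change was -0.28 (SE 0.16, 95% interval -0.65 to 0.09, limma adjusted p = 0.321) for the first and -0.20 (SE 0.16, limma adjusted p = 0.519 over all probes) for the second. Without labelled mutant pool 3 the first probe gave -0.12. The remaining probe, dim at a mean log2 signal of 6.13 in labelled mutant pools and 6.10 in control pools, gave 0.03 (SE 0.13), on the other side of 0.

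Nrp2, known in lymphatic and venous endothelium and in neurons, had 3 probes near background. At most 2 of 6 arrays detected any of them, 1 labelled mutant and 1 control array, and the other 2 probes were detected on none. The best probe read 179, 173 and 190 in the labelled mutant pools and 165, 175 and 171 in the control pools before normalization. The authors' deposited table lists this probe with a log2 change of -0.21 and an adjusted p of 0.512. Neither direction nor absence of a change can be read for Nrp2 at this signal.

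**Figure D3:**
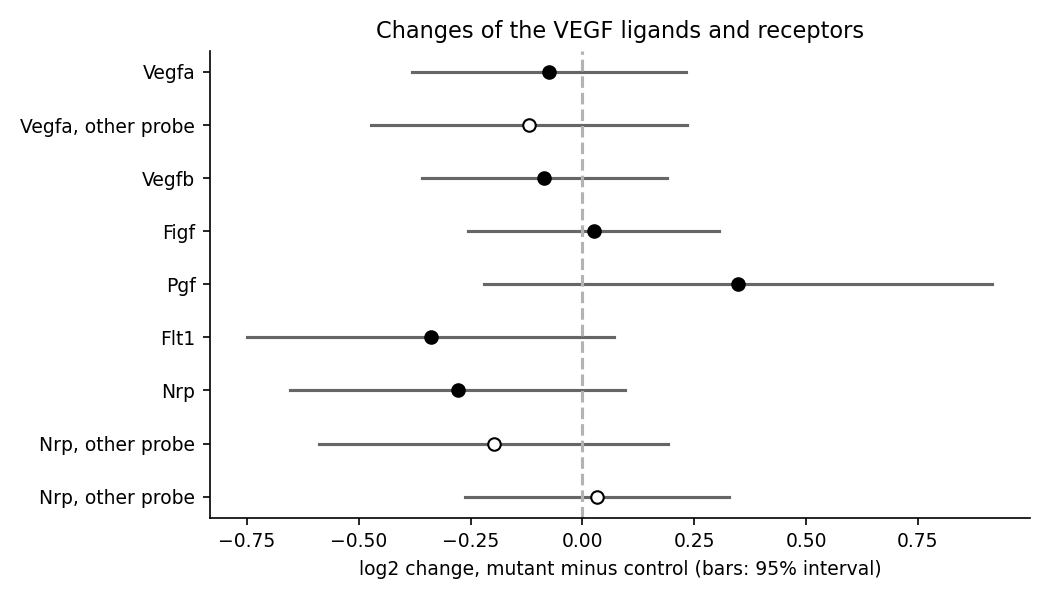
Log2 change, labelled mutant minus control (horizontal axis), of the 9 VEGF probes above background, with 95% intervals as bars. Filled points stand for the gene in the fit over all genes and open points are other probes in the fit over all probes. Each interval spans 0, and the widest belongs to Pgf.

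Each of the 9 tested probes was read from 23 to 58 beads per array, and the standard error over beads was 2.48% to 6.22% of the raw signal, background included. For Pgf and Figf this was about as large as the spread between control pools, or larger. Their raw signals in control pools had an SD of 7.51 and 18.8 between pools, beside bead standard errors of 7.04 to 8.50 and 28.5 to 32.3. In labelled mutant pools the spread was the larger: SD 17.9 and 112, beside bead standard errors of 8.36 to 11.9 and 22.1 to 31.4. The tightest interval of the 6 genes, that of Vegfb, still reached from 0.780-fold to 1.14-fold.

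The values of Flt1 and Nrp in single pools were set beside those of the gene lists. As log2 deviations from its mean over the 6 arrays, Flt1 was at 0.07, -0.21 and -0.37 in labelled mutant pools 1 to 3 and at -0.02, 0.48 and 0.05 in control pools 1 to 3. Nrp was at 0.10, -0.06 and -0.45 in the labelled mutant pools and at 0.09, 0.28 and 0.04 in the control pools. The mean deviation of 23 blood endothelial markers was -0.02, -0.17 and -0.28 in the labelled mutant pools and 0.20, 0.22 and 0.05 in the control pools. In each of the 3 series labelled mutant pool 3 was the lowest and control pool 2 the highest. The mean of 10 pericyte and vessel wall genes had its lowest and highest values in the same pools (-0.24 and 0.28). So did the list of vessel growth inhibitors, which are matrix and fibroblast genes too (-0.37 and 0.39), and the list of VEGF-induced genes (-0.19 and 0.30), and the smooth muscle list was also lowest in labelled mutant pool 3 (-0.58). Some lists other than vessel markers thus shared the lowest pool, but the full order of pools differed. The smooth muscle list was highest in control pool 3 (0.43). Among the control pools Flt1 was lowest in pool 1, and the blood endothelial mean in pool 3. Vegfa had neither extreme in labelled mutant pool 3 or control pool 2. Its lowest value was in labelled mutant pool 2 (-0.27) and its highest in labelled mutant pool 1 (0.18). The part of any of these cell types in the values of Flt1 and Nrp was not tested.

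**Figure D4:**
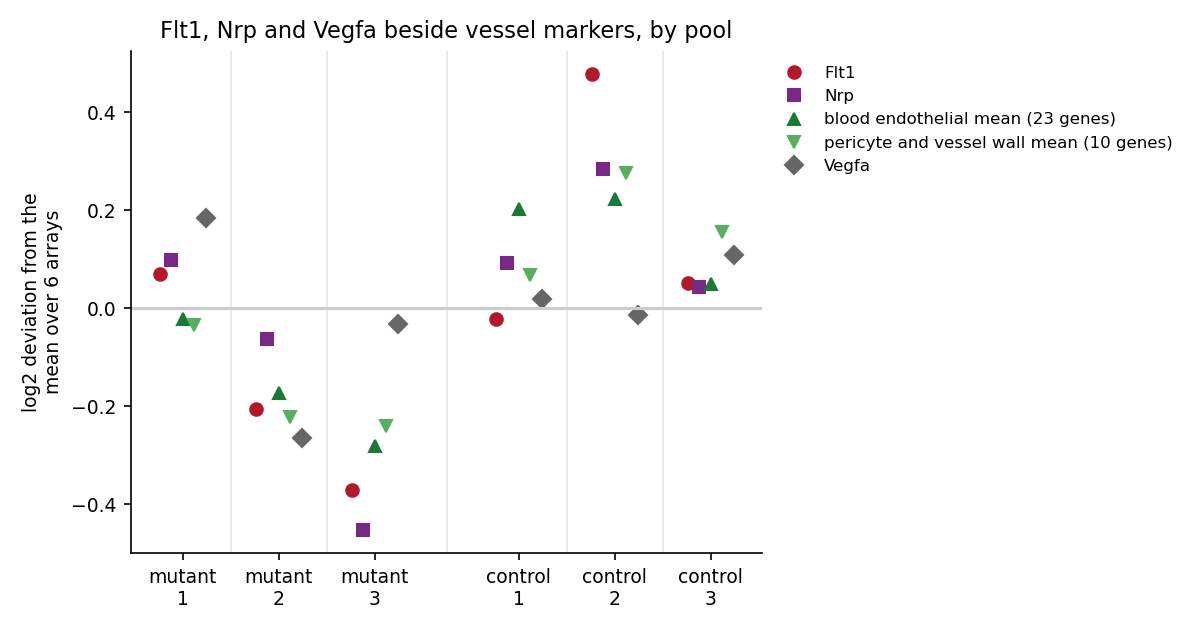
Log2 deviation of each pool from the mean over the 6 arrays (vertical axis) for Flt1, Nrp and Vegfa and for the mean of 23 blood endothelial and 10 pericyte and vessel wall genes; pools labelled mutant are on the left and control pools on the right. Flt1, Nrp and both vessel means are lowest in labelled mutant pool 3 and highest in control pool 2, while Vegfa is lowest in labelled mutant pool 2.

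Of 23 tested blood endothelial markers, 3 fell and 1 rose, and 20 of the 23 changes lay below 0, with a median of -0.35, beside -0.34 for Flt1 and 0.01 for all genes tested. Over all genes tested 5.53% passed, and 5294 of 10831 changes lay below 0. The same background applies to the counts of the lists below on all 6 arrays. In fits without 1 pool, smaller shares of all genes passed. They were 3.24%, 0.789% and 1.53% without labelled mutant pools 1, 2 and 3, and 5.27%, 1.24% and 1.18% without control pools 1, 2 and 3. Complete separation of the groups, given for some genes below, held for 31.4% of all genes tested. Sox18, an endothelial transcription factor, fell by 0.999 on the log2 scale (SE 0.09, limma adjusted p = 0.00654). Eng, a TGF-beta co-receptor, fell by 0.68 (SE 0.13), and Mmrn2, an endothelial matrix protein, fell by 0.48 (SE 0.10). Vwf, the clotting carrier stored in endothelium, rose by 0.63 (SE 0.11). Without single pools the list held between 1 and 4 passing genes. It held 2 without labelled mutant pool 1, and 1 in each fit without labelled mutant pool 2 or 3 or control pool 2 or 3. Sox18 passed in all 6 such fits, whereas Eng, Mmrn2 and Vwf each missed the threshold in 5.

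The remaining VEGF ligand and receptor, on the lymphatic side, were not both measured. Vegfc, which signals through Flt4, had log2 signals of 8.83, 8.63 and 8.59 in the labelled mutant pools, against 8.99, 9.34 and 9.37 in the control pools. All 3 labelled mutant values were below all control values, but the change of -0.55 (SE 0.13) missed the threshold over all genes (limma adjusted p = 0.0638). It passed without control pool 1, where the change was -0.67, and also without background correction. Flt4 had 2 probes, the better of which was detected on 1 labelled mutant and 1 control array. Of 5 tested lymphatic markers 2 fell, and all 5 changes were below 0 (median -0.92). Lyve1, a hyaluronan receptor, fell by 1.57 (SE 0.27, limma adjusted p = 0.0280). Ccl21a, a chemokine of lymphatic endothelium, fell by 1.28 (SE 0.15, limma adjusted p = 0.0100). The count was 0 without labelled mutant pool 2, 1 without labelled mutant pool 1 or control pool 2 or 3, and 4 without labelled mutant pool 3. Lyve1 is also expressed by some macrophages.

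Downstream of the receptors, 1 of 38 tested signal transduction genes passed, where 5.53% of all genes tested did, so the list held no excess of passing genes. Nfatc1, a calcineurin-dependent transcription factor of endothelium, bone and other tissues, had log2 signals of 8.20, 7.90 and 8.20 in the labelled mutant pools, against 9.21, 9.44 and 9.38 in the control pools. The groups lay more than 1 log2 unit apart. Nfatc1 fell by 1.24 (SE 0.12, limma adjusted p = 0.00787) and passed in each fit without 1 pool. The rest of this list, kinases, adaptors and small GTPases used by many receptors, ranged in change from -0.53 to 0.50, and the list median was -0.08. Of 10 tested genes that VEGF is known to induce in endothelium, none passed in limma's test over all genes, and the median was -0.27. The smallest p-values were those of the homeobox gene Hlx (change -0.65, SE 0.17, limma adjusted p = 0.0736) and of the protease gene Adamts1 (change -1.03, SE 0.30, limma adjusted p = 0.0965). The groups separated completely for both, as they did for 31.4% of all genes tested. Nr4a2, with the next smallest p, also separated, but was higher in labelled mutant pools (change 0.32, SE 0.10, limma adjusted p = 0.105). Adamts1 was above background in 2 of 3 labelled mutant pools, and it passed without labelled mutant pool 3 and also without background correction.

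Vegfa transcription is controlled by oxygen through Hif proteins, and of 8 tested genes of that system 1 passed. Vhl, the ubiquitin ligase subunit that targets Hif proteins for breakdown, had log2 signals of 6.83, 6.78 and 6.84 in the labelled mutant pools, against 7.32, 7.23 and 7.35 in the control pools. Vhl fell by 0.49 (SE 0.08, limma adjusted p = 0.0280), but missed the threshold in 5 of 6 fits without 1 pool, the exception being that without control pool 1. Without background correction its change was -0.24. Epas1, a Hif subunit found mainly in endothelium and epithelium, had values of 8.41, 8.38 and 8.67 in the labelled mutant pools, against 8.09, 7.42 and 7.48 in the control pools, without overlap. Its change of 0.82 (SE 0.19) missed the threshold (limma adjusted p = 0.0613), and it passed without control pool 1, with 1.04, and also without background correction. Hif1a, the general Hif subunit, changed by -0.28 (SE 0.10, limma adjusted p = 0.146), with all labelled mutant values below the control values. The Hif partners and relatives Arnt (-0.05, SE 0.17) and Hif3a (-0.24, SE 0.36) and the oxygen-sensing hydroxylases Egln1 (0.09, SE 0.23), Egln2 (0.15, SE 0.12) and Egln3 (-0.01, SE 0.20) overlapped between the groups.

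Of 21 tested genes known to be induced by hypoxia, 1 rose and 2 fell, and the median change was -0.06, near that of all genes. Aldoc, a glycolytic aldolase, rose by 0.996 (SE 0.16, limma adjusted p = 0.0239). The collagen prolyl hydroxylase genes P4ha1 and P4ha2 fell by 0.64 (SE 0.13) and 0.43 (SE 0.09). Collagen synthesis uses both of these enzymes, and the cartilage collagen gene Col2a1 was lower in the same pools; its part in these values was not tested. Aldoc missed the threshold in 5 of 6 fits without 1 pool, P4ha1 in 5 and P4ha2 in all 6, so that the list held 0 or 1 passing genes without any 1 pool.

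The semaphorin side of the neuropilins showed no called change. None of 6 tested class 3 semaphorin and plexin genes passed in limma's test over all genes, and the median was -0.07. Sema3b had the smallest p-value (change 0.36, SE 0.18, limma adjusted p = 0.267), and Sema3f, a ligand of Nrp2, had a change of -0.13 (SE 0.08, limma adjusted p = 0.380) with complete separation of the groups. Plxnd1 and Plxna1, plexins that pair with neuropilins, were at background on all 6 arrays.

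Among vessel wall genes, none of 10 passed in limma's test over all genes. The pericyte genes Rgs5 (change -1.10, SE 0.27, limma adjusted p = 0.0639) and Cspg4 (change -0.77, SE 0.20, limma adjusted p = 0.0788) had the smallest p-values, and Rgs5 passed without control pool 1. Of 7 tested genes that restrain vessel growth 2 fell, Thbs2, a thrombospondin, by 1.13 (SE 0.14, limma adjusted p = 0.0122) and Serpinf1, which encodes PEDF, by 0.63 (SE 0.10, limma adjusted p = 0.0263). All 7 changes were below 0 (median -0.37). Both are also made by fibroblasts. The count was 0 without labelled mutant pool 2 and 1 without labelled mutant pool 1 or 3 or control pool 2 or 3, with Thbs2 missing the threshold only without labelled mutant pool 2. Cnmd, chondromodulin, the cartilage inhibitor of vessel growth, was at background on all 6 arrays, the control pools included.

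**Figure D5:**
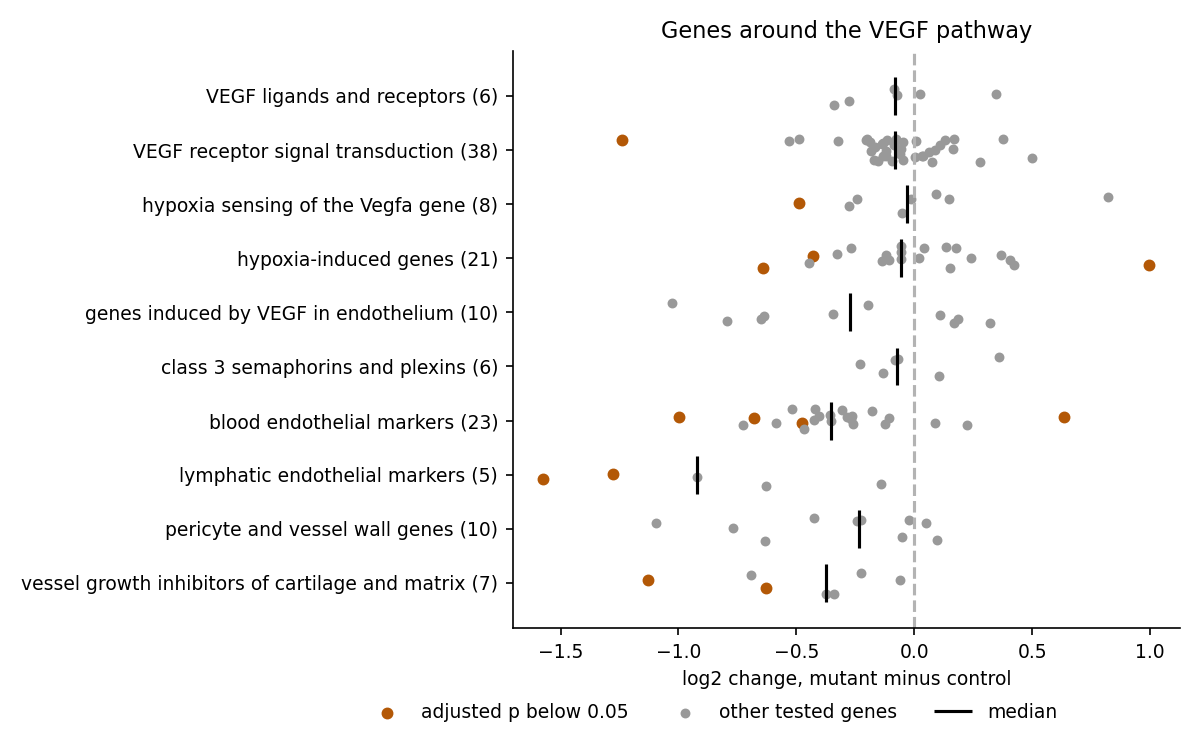
Log2 change, labelled mutant minus control (horizontal axis), of the 6 tested VEGF genes and of lists around them, with the number of tested genes in brackets. Each point is a gene, orange points passed at an adjusted p below 0.05, and black bars are list medians. No VEGF gene passed, and the blood and lymphatic endothelial medians lie at -0.35 and -0.92.

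Markers of other cell types of the trachea were read on the same arrays. Of 6 tested smooth muscle markers 2 fell, Actg2 by 0.86 and Tagln by 0.65, with a median of -0.64 and all 6 changes below 0. Of 10 airway epithelium markers none passed in limma's test, with a median of 0.29, and Foxj1 (change 0.64, limma adjusted p = 0.0556) and Trp63 (change 0.47, limma adjusted p = 0.0648) had the smallest p-values. Foxj1 passed without labelled mutant pool 1 and Trp63 without control pool 1. Of 5 distal lung markers 2 rose, Sftpb by 2.32 (SE 0.40) and Abca3 by 0.55 (SE 0.12). The other 3 did not pass, 1 of the 5 changes lay below 0, and the list median was 0.55. Stmn2, a neuronal marker, rose by 0.76 (SE 0.14). Of 10 macrophage markers Aif1 and Ms4a7 rose, by 0.58 and 0.55, and the other 8 did not pass, with a list median of -0.05. In this list 7 of the 10 changes lay below 0. The largest was that of Cd163 (-1.10, SE 0.33, limma adjusted p = 0.0996), detected in 0 of 3 labelled mutant and 3 of 3 control pools. Each of these named passing genes missed the threshold in 4 to 6 of the fits without 1 pool. The summed raw signal of the smooth muscle markers was 18494 to 27204 in labelled mutant pools and 22579 to 33250 in control pools, and that of the distal lung markers was 11501 to 17835 and 9670 to 10675. These sums are not normalized, and raw signal was higher in all 3 labelled mutant pools than in any control pool for 50.3% of all genes tested. The part of these cell types in the VEGF values was not tested.

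The genes closest in profile to the VEGF genes with the smallest p-values were found by the root mean square distance of log2 deviations over the 6 arrays. For Flt1 they were Col3a1 at 0.05, Ccl24 at 0.07 and Fat4 at 0.07, where the deviations of Flt1 itself had a root mean square of 0.26. For Nrp they were Rasl11b at 0.02, Dnajc18 at 0.03 and Elmo2 at 0.04, against 0.23 for Nrp itself. None of these 6 genes passed in limma's test over all genes, with changes from -0.44 to -0.28. They were chosen for closeness over the same 6 arrays, so changes near those of Flt1 and Nrp follow from the choice.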

How the data were processed

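Mean bead intensity, its bead standard error, bead count per probe and detection p-value were deposited by the authors for 25697 probes on 6 arrays. The submitters' processing notes name limma 3.26.9 and R 3.2.3. A series table and a table of limma results, both deposited by the authors, hold log2 values, and the limma table also holds scores (t and B). Raw intensities were corrected and quantile normalized here with neqc (offset 16) in limma 3.58.1 under R 4.3.3. These values lie within 0.0170 of the deposited series values. A probe was kept if 3 or more of the 6 arrays detected it (p below 0.05), which left 14711. Symbols were updated through RefSeq (GRCm38.p6), and the brightest kept probe stood for each of 10831 genes. The change of each gene (labelled mutant minus control) came from lmFit and eBayes of limma on the 6 arrays, with no covariate. Tests were two-sided, and p-values were adjusted over the 10831 genes by Benjamini-Hochberg. Other probes were fitted over all probes.

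Members and lists were chosen with earlier results of these data known. Named genes were the 8 members, up to 4 passing genes per list with the largest change (2 with the smallest p where none passed), all tested genes of the Vegfc and oxygen-sensing lists, and the 3 nearest profiles. Pecam1, Cdh5, Flt4, Cnmd, Plxnd1, Plxna1, Cd163 and Nr4a2 were named after their values were seen. Chm, entered in error, was left out of the inhibitor list. The symbol Pigf belongs to another gene and was not used for Pgf. A p-value here reflects only how far pools of 3 embryos differ among themselves, and the number of arrays limits precision. Tracheas were pooled at random, so the replicate numbers were not taken to pair the groups. Deviations of same-numbered pools from their group means had correlations of -0.01, -0.09 and -0.10. With 3 pools per group, centred on their own mean, these correlations cannot decide whether pools were paired. As alternatives, the background correction, its offset, the normalization, the value source, the detection filter, the probe rule and the variance model were changed, a replicate block was added, and each pool was left out.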

Additional observations from a re-analysis of the deposited data

How the results depend on the processing

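Under all 19 alternatives none of the 6 tested VEGF genes passed limma's test (114 values, smallest adjusted p = 0.107, that of Pgf with array weights). Of these values 111 kept their sign. Vegfa ranged from -0.186 to 0.0388 and Figf from -0.0619 to 0.103 without 1 pool. The cause was not tested. The median of the VEGF genes, -0.08, was 0.00863 without labelled mutant pool 2. The count of changed genes, 599, was 949 without background correction, 391 without a detection filter, 1022 with a variance trend, 1395 with array weights, 122 with replicate number as a block, and 84 to 563 without 1 pool (346 without labelled mutant pool 1, 84 without 2, 163 without 3, 133 without control pool 2 and 126 without 3). Under the block no VEGF gene passed (smallest adjusted p = 0.155). With median scaling 54.8% of changed genes were higher in labelled mutant pools, against 39.1% with quantile normalization. Sign also turned for Egln3 (0.0597 with median scaling, -0.22 to 0.14 without 1 pool), Hif3a (0.14 with array weights, -0.692 to 0.0838 without 1 pool), Egln1 (-0.18 to 0.23 without 1 pool) and Arnt (-0.238 to 0.0941 without 1 pool), none of them called. Pgf lay close to background, and its change was 0.10 without background correction. With no detection filter Kdr gave 0.07 (adjusted p = 0.835) and Nrp2 -0.21 (adjusted p = 0.588), from probes at or near background. Over all alternatives the passing genes numbered 1 to 5 for blood endothelial, 0 to 4 for lymphatic, 0 to 5 for hypoxia-induced, 0 to 3 for inhibitor and 0 to 4 for smooth muscle lists.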
